A study of Mus musculus with 4 samples.

Results

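The genes described here were 6 S100 genes (S100a8, S100a9, S100a4, S100a6, S100a10 and S100a11) and 4 genes of neutrophil granules and neutrophils (Retnlg, Ngp, Lcn2 and Mpo), which are 10 of the 34745 genes counted in macrophages of mice labelled as G3bp1 knockout or control. They were picked by symbol, because S100a9 fell far more than S100a8 from control to knockout. Their knockout-to-control values are therefore a description and carry no test.

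S100 proteins are small calcium-binding proteins with paired EF-hands, most of which work as dimers. S100A8 and S100A9 pair with each other into calprotectin, a complex that fills the cytoplasm of neutrophils and of monocytes, binds zinc and manganese, and acts outside the cell as an alarm signal through TLR4 and RAGE. Neutrophil granules are built in sequence as the cell matures, from azurophil granules with myeloperoxidase and serine proteases, through specific granules with lactoferrin and lipocalin 2, to gelatinase granules.

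Total RNA from bone marrow-derived macrophages (BMDMs) was sequenced in 4 libraries, 2 per genotype, each numbered 1 or 2 by the labels. The controls, labelled WT, carried the floxed alleles alone (G3bp1f/f), and the knockouts, labelled KO, were G3bp1mac-/- mice in which Lyz2-Cre deletes floxed G3bp1, so every library came from floxed animals. Lyz2-Cre is active in monocytes and granulocytes as well as in macrophages, and the cells grew in DMEM with serum and antibiotics, with no stimulus named in the labels. Ages, and whether libraries 1 and 2 of a genotype came from separate mice, are not given in the sources used here, so p-values measure only the spread between these libraries, which may be technical.

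The libraries held 16724241 to 19747909 counts, and 12418 genes had enough counts to be tested. G3bp1, the targeted gene and the scaffold of stress granules, had 1691 and 2875 counts in WT1 and WT2 and 1307 and 2296 in KO1 and KO2, which gave 142 ± 53.9 CPM in WT and 93.4 ± 32.9 CPM in KO (CPM, counts scaled by library total and TMM factor, mean ± SD, n = 2 per genotype). The paper reports an efficient loss of G3BP1 in macrophages of these mice, with mRNA and protein measured in BMDMs. In the counts used here the genotypes overlapped for G3bp1, because KO2 was above WT1. The log2 fold change was -0.61 (SE 0.40, adjusted p = 0.904 by edgeR's quasi-likelihood test), and -0.57 and -0.63 within numbers 1 and 2. The counts per gene do not show which exons were read. None of the 12418 genes passed an adjusted p of 0.05 in this test, 823 had an unadjusted p under 0.05, and on the same genes edgeR's exact test called 174 and DESeq2 called 181. In bulk RNA, fewer cells of a type and less RNA per cell cannot be told apart.

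The 6 S100 genes lay on chromosome 3 in a pair of groups (GRCm38 coordinates throughout). S100a4 (chr3:90603771-90606045, + strand), S100a6 (chr3:90612882-90624181, + strand), S100a8 (chr3:90668978-90670035, + strand) and S100a9 (chr3:90692632-90695721, - strand) sat close together, and S100a11 (chr3:93520488-93526287, + strand) sat beside S100a10 (chr3:93555080-93564643, + strand). The main transcript of each of the 6 had 3 exons. Retnlg lay at chr16:48872608-48874498 on the + strand, Lcn2 at chr2:32384633-32388252 on the - strand, Ngp at chr9:110419747-110423012 on the + strand and Mpo at chr11:87793581-87804413 on the + strand. S100a4 overlapped Gm42674 on its own strand, and Mpo overlapped the antisense gene Gm11505. S100a8 and S100a9 shared none of the 645 stretches of 50 bases in the S100a8 transcripts, and Retnlg shared none of its 544 with Retnla, Retn or Retnlb, so reads of that length would not be split between them.

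The stretches just before S100a9, S100a8 and Retnlg are shown because S100a9 and Retnlg had the largest fitted differences and S100a8 is the partner of S100a9. They are RefSeq promoter sequence of GRCm38.p6, 5′ to 3′ on the strand of the gene, for S100a9 chr3:90695722-90695971 (- strand), for S100a8 chr3:90668821-90668977 (+ strand) and for Retnlg chr16:48872358-48872607 (+ strand). Capitals mark matches, on either strand, to the C/EBP letters TTGCNNAA or the PU.1 letters GAGGAA, and the AP-1 letters TGANTCA were searched too.
S100a9: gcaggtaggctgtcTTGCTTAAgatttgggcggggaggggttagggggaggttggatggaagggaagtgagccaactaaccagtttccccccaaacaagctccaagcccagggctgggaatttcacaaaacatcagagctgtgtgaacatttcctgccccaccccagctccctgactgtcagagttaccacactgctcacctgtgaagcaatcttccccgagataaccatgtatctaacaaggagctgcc
S100a8: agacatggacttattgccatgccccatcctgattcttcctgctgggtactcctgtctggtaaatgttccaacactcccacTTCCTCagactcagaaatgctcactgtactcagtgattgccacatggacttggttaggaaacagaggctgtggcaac
Retnlg: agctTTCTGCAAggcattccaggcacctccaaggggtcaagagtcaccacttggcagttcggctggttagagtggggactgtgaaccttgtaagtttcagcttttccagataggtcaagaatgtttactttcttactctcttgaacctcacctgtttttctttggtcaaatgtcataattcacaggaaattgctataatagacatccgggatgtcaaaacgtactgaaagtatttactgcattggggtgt
S100a9 held 1 C/EBP match, whose first base was at position -236 counted back from the last base shown, and Retnlg held 1 at -246, both with no PU.1 match. S100a8 held 1 PU.1 match at -77 and no C/EBP match in its shorter stretch of 157 bases. That stretch ended before the counted start of the gene, upstream of its RefSeq start at 90669071. The bases between these starts were not searched, so the S100a8 matches are not set against those of the other stretches. No AP-1 match was found in the 3 stretches. Over 32851 promoter windows of 250 bases, 9.56% held the C/EBP letters, 23.25% the PU.1 letters and 6.75% the AP-1 letters. In windows of 157 bases these shares were 6.47%, 15.28% and 4.24%. A match describes letters in this window and is not evidence of binding.

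S100a9, the larger subunit of calprotectin, was nearly absent from the KO libraries. It had 91 counts in WT1 and 82 in WT2, against 2 in KO1 and 1 in KO2. The WT libraries lay close together and far above both KO libraries, with no overlap. Levels were 5.38 ± 0.328 CPM in WT and 0.0791 ± 0.0400 CPM in KO (n = 2 each), a fitted log2 fold change of -5.98 (SE 0.51). The 3 KO counts against 173 WT counts, scaled by library total and TMM factor, put KO at 1.46% of WT, with a 95% exact counting interval of 0.297% to 4.32% that covers counting error only. Both KO values lay below the level of 3 counts, which was 0.161 CPM in KO1 and 0.152 CPM in KO2, so the size of the difference depended on few reads, and it was -6.54 without KO1 and -5.55 without KO2.

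S100a8, its partner, was lower in KO by far less. The libraries held 235 counts in WT1, 242 in WT2, 133 in KO1 and 209 in KO2. Both KO libraries were below both WT libraries, and KO2 lay nearer to WT than KO1 did. Levels were 14.8 ± 0.495 CPM in WT and 8.88 ± 2.46 CPM in KO (n = 2 each), with a fitted log2 fold change of -0.74 (SE 0.30), which was -1.06 without KO2 and -0.48 without KO1. After scaling by library total and TMM factor, the summed counts of KO stood at 60.2% of WT, with a counting interval of 52.2% to 69.3%. This interval covers counting error only and leaves out the spread between libraries. A correction of each library for its trend with gene length took the value to -0.41.

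The balance within the pair differed between genotypes. For every S100a8 count there were 0.387 S100a9 counts in WT1 and 0.339 in WT2, but 0.0150 in KO1 and 0.00478 in KO2. Per length, on the authors' FPKM scale, S100a9 made up 34.4% and 31.4% of the summed S100a8 and S100a9 level in WT1 and WT2, and 1.99% and 0.643% in KO1 and KO2. In the WT libraries both genes contributed to the pair's FPKM, and in the KO libraries nearly all of it was S100a8. The FPKM level of S100a8 was 1.91 and 2.18 times that of S100a9 in WT1 and WT2, against 49.2 and 155 times in KO1 and KO2. The difference between the fitted log2 fold changes of the genes was -5.24, and the spread of their log2 ratio between libraries of a genotype was 0.70. The pair was chosen for this difference, so it is given without a test.

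**Figure D1:**
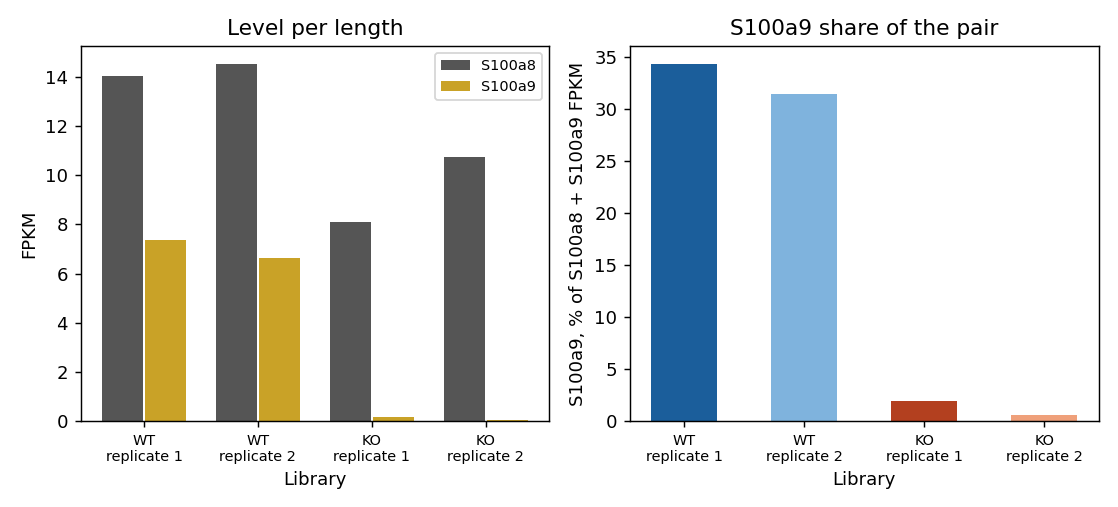
S100a8 and S100a9 in each library (WT1, WT2, KO1, KO2), as bars of the authors' FPKM from 0 (left) and as the percent of the summed FPKM that was S100a9 (right), with 1 bar per library. S100a8 lies between 8.08 and 14.5 FPKM in all 4 libraries, while S100a9 lies at 7.35 and 6.65 FPKM in WT and at 0.164 and 0.0696 FPKM in KO, and its share drops from 34.4% and 31.4% to 1.99% and 0.643%.

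S100a4, also called metastasin and known to bind non-muscle myosin, had 2434 counts in WT1, 2270 in WT2, 1997 in KO1 and 2350 in KO2. Scaled to library size these were 150 and 142 CPM in WT and 107 and 119 CPM in KO, so that the KO libraries were the lower ones without overlap. The fitted log2 fold change was -0.37 (SE 0.22), and it turned to 0.04 after the correction for gene length. Gm42674, which overlaps S100a4, had no count in any library.

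S100a6, or calcyclin, a partner of the ubiquitin ligase adaptor CacyBP, was the S100 member with the largest WT spread in CPM. It had 14063 counts in WT1, 7651 in WT2, 5406 in KO1 and 6277 in KO2. WT1 stood well above WT2, and both KO libraries were lower than WT2. Levels were 674 ± 274 CPM in WT and 305 ± 20.4 CPM in KO (n = 2 each), which gave a fitted log2 fold change of -1.15 (SE 0.34) that was -0.66 without WT1 and -1.51 without WT2.

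S100a10, which forms a tetramer with annexin A2 and anchors plasminogen at the cell surface, showed the same order of libraries in CPM as S100a6. The counts were 10759 in WT1, 7543 in WT2, 5383 in KO1 and 7359 in KO2. In CPM both KO libraries were below both WT libraries, with 568 ± 134 CPM in WT and 331 ± 60.1 CPM in KO (n = 2 each). The fitted log2 fold change was -0.78 (SE 0.29), and -0.51 without WT1.

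S100a11, or calgizzarin, a binder of annexin A1, was the S100 member whose genotypes overlapped. It had 1525 counts in WT1, 1381 in WT2, 1792 in KO1 and 1720 in KO2. The scaled levels of the 4 libraries were interleaved, at 90.3 ± 5.19 CPM in WT and 91.8 ± 6.21 CPM in KO (n = 2 each). The fitted log2 fold change was 0.02 (SE 0.22), which was -0.02 with DESeq2's size factors and 0.58 after the correction for gene length. Next to S100a10 on the chromosome, S100a11 thus had a value near 0 while its neighbour's was -0.78.

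Retnlg, which encodes the resistin-like molecule gamma made by bone marrow granulocytes, was the second gene that was nearly absent from KO. The libraries held 99 counts in WT1, 71 in WT2, 3 in KO1 and 9 in KO2. Both KO libraries were far below both WT libraries, and KO1 was at the level of 3 counts. Levels were 5.28 ± 1.16 CPM in WT and 0.309 ± 0.209 CPM in KO (n = 2 each), which gave a fitted log2 fold change of -4.05 (SE 0.57), or -4.97 without KO2 and -3.51 without KO1. The summed KO level, scaled likewise, was 5.92% of WT, with a counting interval of 3.0% to 10.6% that covers counting error only.

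Lcn2, the siderophore-binding lipocalin of specific granules that macrophages also make when activated, followed the replicate number and not the genotype. It had 9 counts in WT1 and 14 in KO1, against 247 in WT2 and 276 in KO2. Both libraries numbered 2 were far above both libraries numbered 1, and the genotypes overlapped. The log2 ratio of number 2 to number 1 was 4.73 in WT and 4.17 in KO, and 4.36% of the tested genes had a ratio over 1 in both genotypes. Levels were 8.03 ± 10.6 CPM in WT and 7.39 ± 9.38 CPM in KO (n = 2 each), so the fitted genotype value of -0.12 (SE 1.65) was far smaller than its error, and it turned to 3.72 without WT2, to 0.80 without KO1, and it was -1.07 without WT1 and -3.40 without KO2. What the replicate number stands for is not given in the sources used here.

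Ngp, the neutrophilic granule protein of specific granules, had 1 count in each WT library and none in KO, and no fold is given at this depth. Mpo, the myeloperoxidase of azurophil granules, had 0 counts in all 4 libraries, which allows up to 0.152 to 0.188 CPM in a library by the limit of 3 counts. Both genes had too few counts to be tested.

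Of the 10 genes, 8 could therefore be fitted, and for 6 of them (S100a8, S100a9, S100a4, S100a6, S100a10 and Retnlg) both KO libraries were below both WT libraries. Among all tested genes this share was 16.9%, and since the genes were picked on this contrast nothing is read from the difference. Within replicate number 1 the log2 ratios of KO to WT were -5.39 for S100a9, -5.03 for Retnlg, -1.58 for S100a6, -1.20 for S100a10, -1.02 for S100a8 and -0.49 for S100a4. Within number 2 they were -6.09, -3.22, -0.59, -0.34, -0.52 and -0.25 in that order. All 6 were negative in both numbers, and all but S100a9 were nearer to 0 in number 2.

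**Figure D2:**
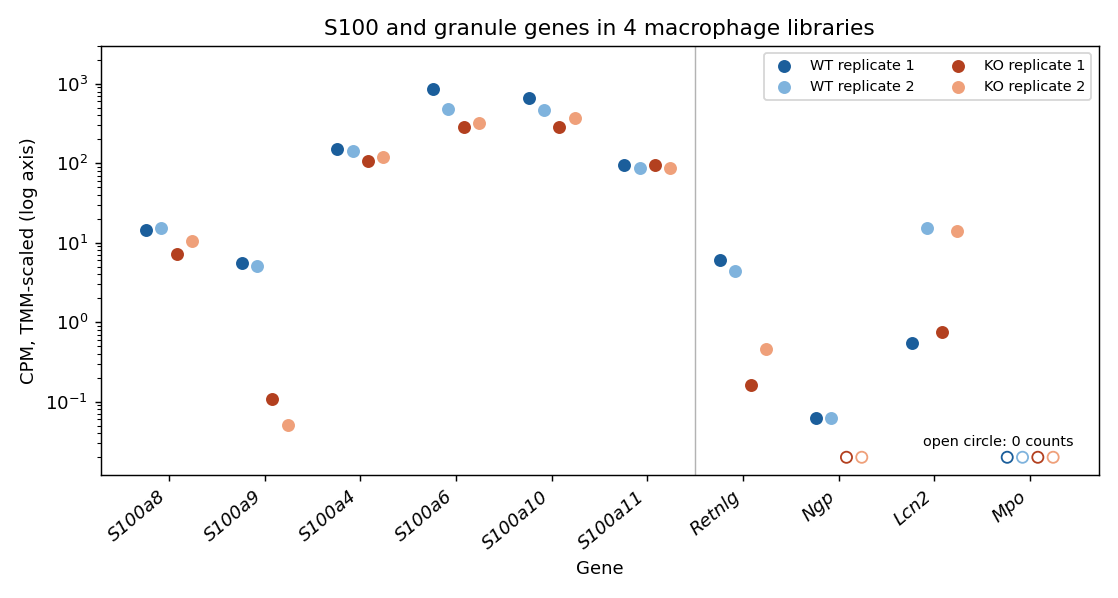
CPM of the 10 genes on a log axis, with 1 point per library the genotypes in separate colours and open circles at the bottom for 0 counts. S100a9 and Retnlg show the widest gap between WT and KO, the WT libraries of S100a6 are spread from 480 to 867 CPM, and Lcn2 splits by replicate number, near 0.555 and 0.751 CPM in number 1 and near 15.5 and 14 CPM in number 2.

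**Figure D3:**
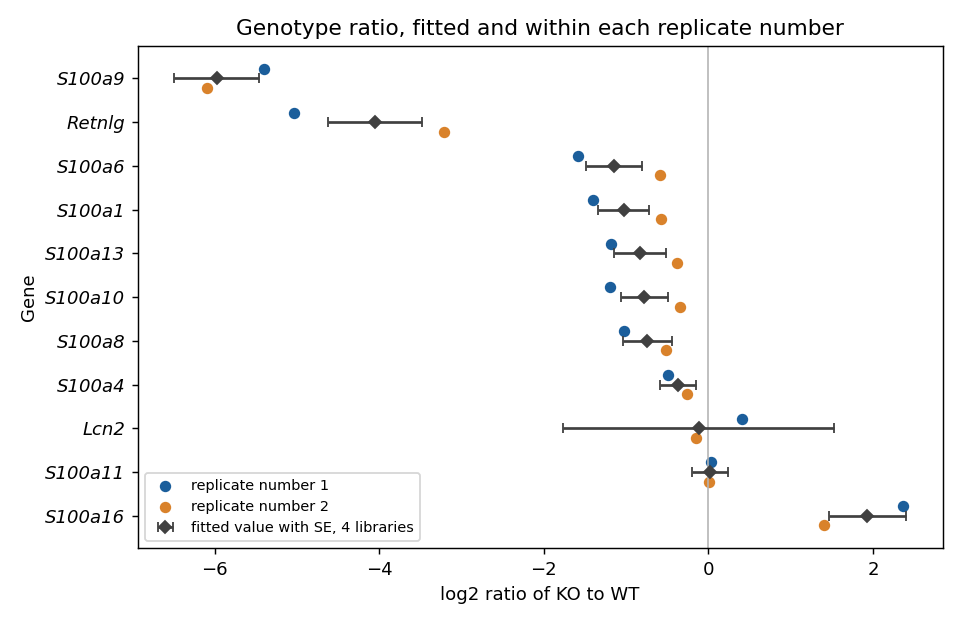
Log2 ratio of KO to WT for the 8 fitted genes and 3 further S100 genes, as the value fitted over 4 libraries with its SE (diamonds) and as the ratio within replicate number 1 and within number 2 (circles, 0.5 counts added). S100a9 and Retnlg stand at -5.98 and -4.05, the others but S100a16 between -1.15 and 0.02, and S100a16 at 1.93.

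Per length, the 10 genes spanned a wide range of FPKM. In WT the order was S100a10 (333 ± 81.6 FPKM), S100a6 (331 ± 137), S100a11 (168 ± 11.2), S100a4 (166 ± 7.66), S100a8 (14.3 ± 0.342), Retnlg (8.24 ± 1.89), S100a9 (7.0 ± 0.493), Lcn2 (1.55 ± 2.04), Ngp (0.0482) and Mpo (0). The WT libraries overlapped for the neighbours S100a10 and S100a6, S100a11 and S100a4, and Retnlg and S100a9, and no others in that order. In KO the order was S100a10 (214 ± 22.2 FPKM), S100a11 (190 ± 27.7), S100a6 (166 ± 1.97), S100a4 (143 ± 0.346), S100a8 (9.42 ± 1.89), Lcn2 (1.52 ± 1.91), Retnlg (0.522 ± 0.321) and S100a9 (0.117 ± 0.0669), with Ngp and Mpo at 0. There S100a10 overlapped S100a11, and Lcn2 overlapped Retnlg. S100a10, S100a6, S100a11 and S100a4 stood above S100a8 in both genotypes, and S100a9 stood below Lcn2 in KO and above it in WT.

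Among the other S100 genes, 11 of 12 listed symbols were in the data, S100z, S100a2, S100a5, S100b and S100g had no count in any library, and 3 genes could be tested. None of the 3 passed the adjusted threshold in edgeR's quasi-likelihood test, the exact test or DESeq2. All 3 had an unadjusted p under 0.05 in the first of these, against 6.63% of all tested genes. This list, like those below, was chosen with earlier results of these data known, so nothing is read from the difference. S100a1, known from heart and skeletal muscle, had 16255 counts in WT1, 9751 in WT2, 7061 in KO1 and 8098 in KO2, with a log2 fold change of -1.03 (SE 0.31, adjusted p = 0.519). Per length it exceeded every S100 gene above, with 762 and 459 FPKM in WT and 337 and 327 FPKM in KO. S100a13, which takes part in the export of FGF1 and interleukin 1 alpha, had 2180 counts in WT1, 1272 in WT2, 1101 in KO1 and 1210 in KO2 (log2 fold change -0.83, SE 0.32, adjusted p = 0.731). For both genes WT1 was the highest library, as for S100a6 and S100a10, and without WT1 the values were -0.63 and -0.41. S100a16 had the opposite sign, with 8 and 11 counts in WT1 and WT2 against 50 and 37 in KO1 and KO2 (log2 fold change 1.93, SE 0.47, adjusted p = 0.358). S100a14 (no count in WT, 3 in each KO library), S100a3 (at most 9 counts) and S100a7a (1 count in all) were too low to be tested.

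S100 partners and receptors gave no call in edgeR's quasi-likelihood test, its exact test or DESeq2. Of 8 partner genes, all tested, none had an unadjusted p under 0.05 and the median log2 fold change was -0.38, against 0.04 over all tested genes. Both KO libraries were below both WT libraries in 5 of the 8 and above in 1, against 16.9% and 20.0% of all tested genes. Anxa2, the annexin that S100A10 binds, stood at 1700 ± 19.0 CPM in WT against 1287 ± 226 CPM in KO (n = 2 each, log2 fold change -0.40, SE 0.22, adjusted p = 0.866). Anxa1, the partner of S100A11, had a log2 fold change of -0.41 (SE 0.22, adjusted p = 0.868), which was -0.17 without WT1 and -0.61 without WT2. Ahnak, the giant scaffold that the S100A10 and annexin A2 complex recruits, had 0.28 (SE 0.28, adjusted p = 0.957). The value of Ahnak turned to -0.04 after the correction for gene length and to -0.06 without KO1. Of 8 receptor genes 7 were tested, none passed the adjusted threshold, and Ly96, the TLR4 co-receptor MD-2, had the sole unadjusted p under 0.05, with 566 counts in WT1, 280 in WT2, 265 in KO1 and 246 in KO2 (log2 fold change -0.97, SE 0.38, adjusted p = 0.737, and -0.40 without WT1). The receptors Cd36, Bsg and Cd14 had log2 fold changes of -0.19, -0.43 and -0.34, with adjusted p of 0.957, 0.904 and 0.983. Cd14 went with the replicate number as Lcn2 did, with 2027 and 1967 counts in WT1 and KO1 and 10875 and 10487 in WT2 and KO2, and its value ran from -1.94 without KO2 to 1.35 without WT2. Tlr4 itself, named here after its value was seen, had a log2 fold change of 0.29 (SE 0.27, adjusted p = 0.957).

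The resistin family had 1 more expressed gene. Retnla, or Fizz1, a gene of alternatively activated macrophages, had 292 counts in WT1, 161 in WT2, 42 in KO1 and 60 in KO2. Both KO libraries were below both WT libraries, with a log2 fold change of -2.40 (SE 0.41, adjusted p = 0.25), -2.98 within number 1 and -1.72 within number 2. It missed the threshold in edgeR's quasi-likelihood test but passed it in the exact test (adjusted p = 0.00318) and in DESeq2 (adjusted p = 0.000231), which called 1.40% and 1.46% of the tested genes. Retn had at most 2 counts in a library and Retnlb none.

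The lists of other granule and neutrophil genes held 42 symbols, of which 8 had no count in any library, 22 entries could be tested, and none passed the threshold in edgeR's quasi-likelihood test or its exact test, while DESeq2 called Chil3. An unadjusted p under 0.05 was reached by 2 of the 22, Chil3 (lower in KO) and 1 of the entries of Itgam (higher), against 6.63% of all tested genes, and the median log2 fold change was -0.12. For 3 of the 22 both KO libraries were above both WT libraries and for 3 both were below, against 20.0% and 16.9% of all tested genes. Of the 6 azurophil genes, 4 (Elane, Prss57, Bpi and Ms4a3) had no count in any library, and the list summed to between 0.203 and 0.863 CPM per library.

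Chil3, the chitinase-like protein Ym1 that neutrophil precursors and alternatively activated macrophages both make, had 2331 counts in WT1, 2137 in WT2, 994 in KO1 and 1223 in KO2. The WT libraries were close together and both KO libraries were lower. The log2 fold change was -1.27 (SE 0.23, adjusted p = 0.263 by edgeR's quasi-likelihood test), and the adjusted p was 0.000742 by DESeq2. It was -1.43 within number 1 and -1.11 within number 2.

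Itgam, the alpha chain of the integrin CD11b, had 2 entries with opposite signs. The first had 2936 counts in WT1, 1973 in WT2, 5784 in KO1 and 4477 in KO2 (log2 fold change 0.82, adjusted p = 0.725), and the second 1756 counts in WT1, 4161 in WT2, 980 in KO1 and 2325 in KO2 (-1.11, adjusted p = 0.852). Both libraries numbered 2 were above both numbered 1 for the second entry. The entries lie on the same strand at chr7:128062640-128118491 and chr7:128062683-128128160, and reads in their overlap cannot be assigned with certainty, so neither value stands for the gene.

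The remaining abundant genes of these lists had adjusted p above 0.9, also Cyba and Mmp8, whose libraries did not overlap between genotypes (Cyba lower and Mmp8 higher in both KO libraries). Cyba and Cybb, the membrane subunits of the phagocyte NADPH oxidase, had log2 fold changes of -0.25 and -0.03 (adjusted p = 0.949 and 0.996). That of Cyba turned to 0.18 after the correction for gene length. The collagenase Mmp8 was at 11.6 and 12.1 CPM in WT against 13.1 and 13.2 CPM in KO (log2 fold change 0.15, adjusted p = 0.971). Csf3r, the G-CSF receptor, had -0.03, the protease inhibitor Slpi 0.05, the sheddase Adam8 -0.12 and haptoglobin (Hp) 0.58, all with adjusted p of 0.967 or more. The C-type lectin receptor Clec4d had 9824 counts in WT1, 14801 in WT2, 6785 in KO1 and 16415 in KO2 (log2 fold change -0.36, adjusted p = 0.964). Several of these values turned sign when 1 library was left out, with ranges of -1.20 (without KO2) to 1.35 (without WT2) for Cybb, -0.70 to 1.86 for Hp, again without KO2 and WT2, -1.08 (without KO2) to 0.12 (without KO1) for Clec4d, -0.32 to 0.34 for Csf3r, -0.27 to 0.30 for Slpi and -0.34 to 0.07 for Adam8.

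The larger differences in these lists ran with the replicate number, as for Lcn2. Of the 22 tested entries, both libraries numbered 2 were above both numbered 1 in 10 and below in 3, against 25.2% and 23.2% of all tested genes. Clec4e, the receptor Mincle, had 171 and 258 counts in WT1 and KO1 and 13514 and 17727 in WT2 and KO2, log2 ratios of 6.33 in WT and 6.02 in KO. Cybb had 9727 and 12707 counts in number 1 and 40380 and 46945 in number 2, and Hp 61 and 105 in number 1 and 233 and 428 in number 2. Fpr1 and Fpr2, the formyl peptide receptors, are named after their values were seen. Fpr1 had 1 and 0 counts in number 1 and 267 and 346 in number 2, and Fpr2 had 4 and 0 in number 1 and 393 and 320 in number 2. Cxcr2, the neutrophil chemokine receptor, also named after its values were seen, ran the other way, with 29 and 25 counts in number 1 and 1 and 4 in number 2.

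Of the 4 tested transcription factors of the granulocyte programme, both libraries numbered 2 were above both numbered 1 in 3 and below in 1, against 25.2% and 23.2% of all tested genes. Spi1, which encodes PU.1, had 4764 and 4506 counts in WT1 and KO1 and 9726 and 10839 in WT2 and KO2. Cebpb had 3509 and 2589 counts in number 1 and 7762 and 6908 in number 2. Cebpa, the factor that starts granulocyte differentiation, was instead higher in number 1, with 2501 and 3694 counts against 862 and 1199 in number 2. None of the 4 had an unadjusted p under 0.05 between genotypes in edgeR's quasi-likelihood test, and the log2 fold changes of these 3 were -0.19, -0.52 and 0.32, with signs that turned when 1 library was left out (-0.90 to 0.43, -1.34 to 0.18 and -0.77 to 1.26). Cebpe, the factor of specific granules, had between 4 and 9 counts in every library, with 9 and 8 in WT and 4 and 5 in KO, overlapped between numbers but not between genotypes, and could not be tested.

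**Figure D4:**
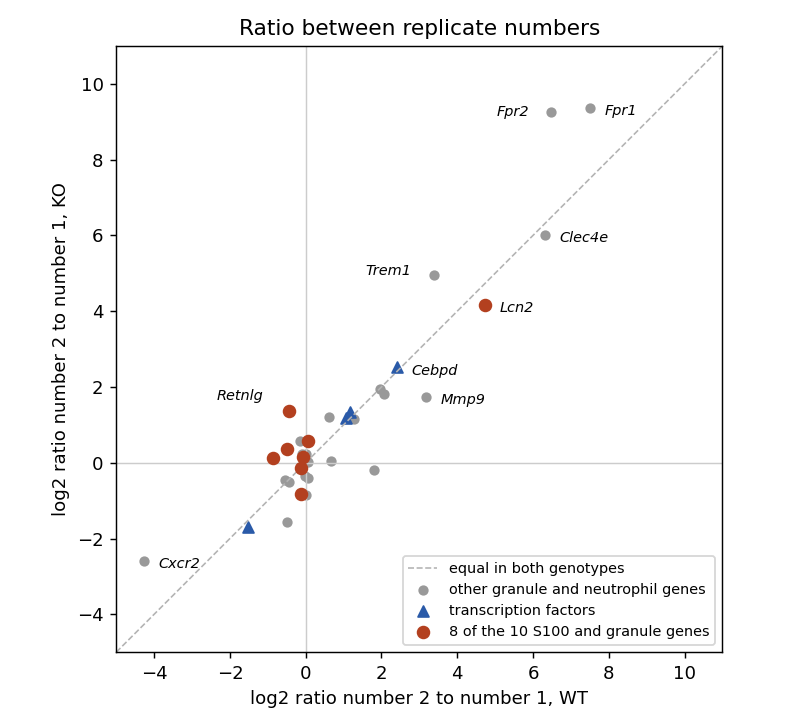
Log2 ratio of number 2 to number 1 in KO (vertical) against the same ratio in WT (horizontal), for the 8 fitted genes, the other tested granule and neutrophil genes and 4 transcription factors, with 0.5 counts added. Lcn2 lies at 4.73 and 4.17 near the line of equal ratios with Clec4e at 6.33 and 6.02, while S100a8 and S100a9 lie within 1 of 0 on both axes, and the genes to label were picked after their values were seen.

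Markers of the cell types that such a culture can hold were summed per library. The macrophage list was expressed throughout, with 10 of 10 genes tested and sums of 27479 and 24934 CPM in WT and 21595 and 24813 CPM in KO. Its most abundant genes, Lyz2, Cd68 and Adgre1, had log2 fold changes of -0.16, -0.18 and -0.18 (adjusted p = 0.962, 0.957 and 0.982). In this list 4 of 10 genes were lower in both KO libraries, against 16.9% of all tested genes, and 2 had an unadjusted p under 0.05, against 6.63%, the complement genes C1qb and C1qc, named after their values were seen, with log2 fold changes of -0.64 and -0.63 (adjusted p = 0.676 and 0.688). Of the 21 listed neutrophil genes outside granules 10 were tested and 3 (Stfa2, Stfa3 and Mrgpra2a) had no count, and the list summed to 683 and 1916 CPM in WT1 and WT2 and 462 and 1848 CPM in KO1 and KO2, most of it from Clec4d and Clec4e. Ly6g, the surface marker by which mouse neutrophils are sorted, had 1 count in WT1 and none elsewhere, and Elane had no count, whereas Csf3r had 781 to 1223 counts per library, Mmp8 188 to 260, and Cxcr2, Fpr1 and Fpr2 had most of their counts in libraries of 1 number as given above.

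Summed levels of other lists stood apart between genotypes beside S100a9 and Retnlg. Over all tested genes, both KO libraries were below both WT libraries for 16.9% and above for 20.0%. The eosinophil sum was 18.0 and 14.7 CPM in WT and 9.77 and 9.96 CPM in KO (3 of 3 tested genes lower in both KO libraries, with Prg2, Ear1 and Ear6 at 0), and the erythroid sum was 11.3 and 8.10 CPM in WT and 1.82 and 2.90 CPM in KO (3 of 3 lower). The B-cell sum was 21.9 and 22.9 CPM in WT and 11.9 and 11.1 CPM in KO (4 of 4 lower), and the mast cell and basophil sum was 34.3 and 36.9 CPM against 18.5 and 22.4 CPM (2 of 3 lower, with Mcpt8 at 0). The stromal sum was higher in KO, at 328 and 302 CPM against 75.0 and 88.2 CPM (7 of 8 higher). The monocyte list went both ways (2 of 7 higher and 2 lower, median log2 fold change -0.30), and its sum of 305 and 302 CPM in KO against 127 and 186 CPM in WT came mostly from Fn1, a matrix gene, without which it was 79.0 and 78.4 CPM against 62.4 and 72.0 CPM. The T and NK cell sum was 2.59 and 2.82 CPM in WT and 1.66 and 2.13 CPM in KO. No gene of these marker lists was called by edgeR's quasi-likelihood test, while its exact test and DESeq2 both called the stromal genes Col1a1, Col1a2, Col3a1, Pdgfra and Cxcl12 (higher) and the globin gene Hbb-bs (lower), the exact test Ccr3 of eosinophils (lower), and DESeq2 Dcn and Fn1 (higher). The part of these cell types in the values of S100a9, S100a8 and Retnlg was not tested.

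**Figure D5:**
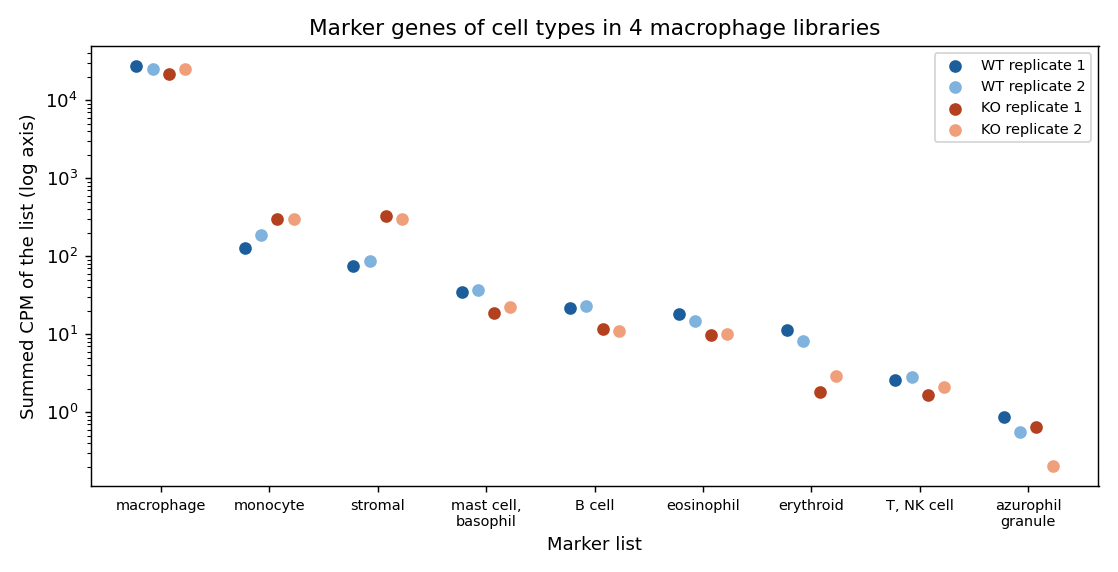
Summed CPM of each marker list on a log axis, with 1 point per library. The macrophage sum lies between 21595 and 27479 CPM in all libraries, the erythroid, eosinophil and B-cell sums are lower in both KO libraries, the stromal sum is higher, and the monocyte sum is higher, mostly from Fn1, with a median log2 fold change of -0.30 over its genes.

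The genes whose profile over the 4 libraries was most like that of S100a9, by Euclidean distance of centred log2(CPM + 1) among 8092 genes with a mean of at least 10 CPM, were Ifi27l2a (distance 0.421), Wdfy1 (0.421), Slc22a4 (0.435), Cdk5rap1 (0.706) and Nmnat1 (1.08). Ifi27l2a, an interferon-induced gene, had 521 counts in WT1, 389 in WT2, 81 in KO1 and 109 in KO2, and Slc22a4, the ergothioneine transporter, 2565 counts in WT1, 1723 in WT2, 520 in KO1 and 494 in KO2. They were picked for this likeness, so their difference between genotypes is part of the choice and is given no test. The 1 added to CPM shrinks the profile of S100a9 more than theirs, since its counts are lower. Fitted log2 fold changes of Ifi27l2a, Wdfy1, Slc22a4, Cdk5rap1 and Nmnat1 were -2.51, -2.24, -2.33, -2.81 and -1.66, all smaller in size than the -5.98 of S100a9. Retnlg, with a mean of 2.79 CPM, was below the limit of 10 CPM and so was not a candidate.
For S100a8 the nearest profiles were Mrpl32 (0.0824), Ighm (0.102), Mrpl17 (0.106), Eif4h (0.121) and Psme1 (0.134), picked in the same way. They include a pair of mitochondrial ribosome subunits, an initiation factor and an immunoglobulin heavy chain gene.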

How the data were processed

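Total RNA of 2 WT and 2 KO BMDM libraries was sequenced. The authors filtered reads with Seqtk, aligned them with HISAT2 2.0.4 and counted fragments per gene with StringTie 1.3.3b. They deposited raw counts of whole numbers and an FPKM value beside each count. Checked on the 10564 genes with high counts in every library, the length implied by count, total and FPKM differed by at most 0.00398% between libraries, so the deposited FPKM are scaled by library totals alone. The submitters' processing notes name mm39, but of the 34267 identifiers in GENCODE M21, 27686 lay at identical coordinates on GRCm38, which is therefore the build used for positions. Strand use in counting is not given in the sources used here, and 59 symbols named more than 1 gene. All 4 count columns and 4 FPKM columns matched a sample (0 left over).

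The count tests used edgeR 4.0.16 under R 4.3.3: filterByExpr (minimum count 10, minimum total 15, which kept 12418 of 17991 genes with any count), TMM (factors 0.955 and 0.942 in WT, 1.12 and 0.997 in KO), genotype as the sole term, and the two-sided quasi-likelihood test (glmQLFit, glmQLFTest), adjusted by Benjamini-Hochberg over all tested genes. Following the study's methods, a gene was called when its adjusted p was below 0.05 and it differed by more than 1 on the log2 scale. Log2 ratios between 2 libraries had 0.5 counts added. Intervals are 95% exact binomial ones, and a count of 0 was read against 3 counts.

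The 10 genes and all lists were chosen with earlier results of these data known. Named by rule were the 10 genes, G3bp1, the tested other S100 genes, the 12 most abundant granule and neutrophil genes, the 3 most abundant partners, receptors, transcription factors, resistin genes and macrophage markers, any list gene called, and the 5 nearest profiles. The alternatives were DESeq2 1.42.0 size factors and Wald test, edgeR's exact test, limma 3.58.1 on log2(FPKM + 1), other filters, no TMM factor, a correction for gene length (loess, span 0.5), the replicate number as a block and leaving out each library.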

Additional observations from a re-analysis of the deposited data

How the results depend on the processing

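The number of calls depended on the test. Across all genes 0 were called, 1 without the TMM factor, 174 by the exact test and 181 by DESeq2. With the replicate number as a block the count was 664 of the 12418 tested genes. It was 318 of 12418 with the correction for gene length on top. The numbers are shared by 2 pairs only, with a correlation of 0.69 over genes between the deviations of WT1 and KO1, and nothing in the sources used here says what a number marks, so the samples are treated as sharing only a number. With the block, 1 of 3 tested other S100 genes was called (S100a16, adjusted p = 0.00156). Of 22 tested granule or neutrophil entries, 2 were called (Chil3 and Itgam, lower). Retnla (-2.35, adjusted p = 2.04e-13) and 16 of 39 tested marker genes (8 higher and 8 lower) were called too. With the correction for gene length on top of the block S100a16 was not called (adjusted p = 0.0744), 10 of 39 marker genes were called, and the count for granule and neutrophil entries was 2. It was 1 by DESeq2 (Chil3). Leaving out a library gave 0 calls each time. S100a9 was -5.54 with the length correction, -5.55 with the block added to it and -2.84 by limma, whose pseudocount of 1 FPKM shrinks low genes, and it ranged from -6.54 to -5.55 without single libraries. S100a8 was -0.41 with the length correction, with or without the block, and ranged from -1.06 to -0.48. Their difference was -2.28 by limma and ranged from -6.05 to -4.50. The block alone left S100a9 at -5.98 and S100a8 at -0.76. Omitting the TMM factor moved the median of all genes from 0.04 to 0.20. Below about 3 counts a library, as for S100a9 in KO, Ngp and Mpo, depth limits any ratio.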
